A study of Rattus norvegicus with 6 samples.

Results

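The subject is the nuclear-encoded machinery of oxidative phosphorylation in rat renal cortex: the structural subunits of complexes I to V, the complex I assembly factors whose names begin with Nduf, the inhibitor of ATP synthase and the tissue-specific paralogs of cytochrome c oxidase subunits. Members were chosen by a rule on gene symbols (symbols beginning with Nduf, Uqcr, Cox4 to Cox8 or Atp5, and Sdha to Sdhd). The rule uses no measured value except that the brightest probe stands for each gene. It was set with earlier results of these data known. The rule found 83 genes among 45433 genes and unmatched accessions on the array: 31 subunits of complex I, 6 complex I assembly factors, 4 subunits of complex II, 8 of complex III, 18 of complex IV and 16 of complex V. Of these, 82 were bright enough to be tested among 31190 transcripts, which took a signal well above background on every array of a group. The exception was Cox8c, a paralog of a small cytochrome c oxidase subunit. It was well above background on 1 corn oil array and on 0 carbon tetrachloride arrays, and no fold is given for it. Ndufa4, first described as a subunit of complex I, is counted with complex IV, and the symbol of Cox6c-ps1 marks it as a pseudogene.

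All 6 rats were male Sprague-Dawley (Crl:CD(SD)) animals, 5 weeks old at purchase. Per the labels, 3 received corn oil, the vehicle, and 3 received carbon tetrachloride at 100 mg/kg/day, each for 4 weeks, and 1 single-colour array was hybridised for each rat. Carbon tetrachloride is a solvent best known for injuring the liver, where P450 metabolism yields reactive radicals. One line of the deposited design speaks of benzyl acetate instead, but every sample label, the title and the protocol give carbon tetrachloride. The comparison asks whether RNA of these genes differed between the renal cortex of treated and control rats. The cortex was taken whole, so fewer cells of a type and less RNA per cell cannot be told apart.

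Oxidative phosphorylation passes electrons from NADH through complex I, or from succinate through complex II, to coenzyme Q, complex III, cytochrome c and complex IV, which reduces oxygen. Complexes I, III and IV move protons across the inner mitochondrial membrane, and complex V, the ATP synthase, uses their return to make ATP. The proximal tubule, which makes up much of the renal cortex, is rich in mitochondria and depends on this process to drive sodium reabsorption. A small set of subunits is encoded by mitochondrial DNA, and all members described here are nuclear genes.

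Values are log2 of the processed spot signal minus that array's 75th percentile of signal. A value of 0 therefore means a signal equal to that percentile, and a difference of 1 is a doubling. On each array 68.5% to 72.1% of probes stood well above background. The correlation between arrays over the members ran from 0.9961 to 0.9993 within groups and from 0.9959 to 0.9992 between groups. Slide 1 held all corn oil arrays, in its row 1, and carbon tetrachloride replicates 1 and 2, in its row 2. Carbon tetrachloride replicate 3 lay alone on slide 2, which was scanned separately. The tissue label was set against markers: all 8 proximal tubule markers were tested, and their mean value was 7.31 to 7.46 in corn oil rats and 7.37 to 7.50 in treated rats. The mean of the thick ascending limb and distal tubule markers was 3.14 to 3.72 in corn oil rats and 3.38 to 3.78 in treated rats. Higher in treated rats were 4 of 5 podocyte, 4 of 5 endothelial and 3 of 5 collecting duct markers, against 52.2% of all tested transcripts. Of these 3 lists, 0 genes passed an adjusted p of 0.05 in limma. All 6 leukocyte markers had a lower mean in treated rats, but by unlike amounts. Cd3e differed by -1.11 and was dim, well above background on only 2 treated arrays. Cd8a, Cd74 and Ptprc differed by -0.70, -0.41 and -0.27, and of these only Cd8a had groups without overlap. Cd68 and Csf1r differed by -0.11 and -0.0056, and their groups overlapped. The mean over the 6 was -0.65 to -0.33 in corn oil rats and -1.02 to -0.79 in treated rats. The threshold was passed by 0 of them (smallest limma adjusted p = 0.749). At an unadjusted p under 0.05 in limma 3 were lower, against 2.64% of all tested transcripts. The part of the leukocyte difference in the values below was not tested.

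Of the 82 tested members, 0 passed an adjusted p of 0.05 in limma, in which 1 of 31190 transcripts did (0.00321%). The smallest adjusted p of a member was 0.812. An unadjusted p under 0.05 was also reached by 0 members, against 6.28% of all tested transcripts (3.64% higher and 2.64% lower in treated rats). The intervals were narrow for most members. For 78 of 82 (95.1%) the 95% interval of the fold change lay within 1.5-fold either way, against 73.0% of all tested transcripts, and for 81 it lay within 2-fold. The 4 members with a wider interval were Cox8b, Cox4i2, Ndufaf4 and Atp5po. The fitted fold was farthest from 1 for Cox8b (1.30) and Cox4i2 (0.794).

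**Figure D1:**
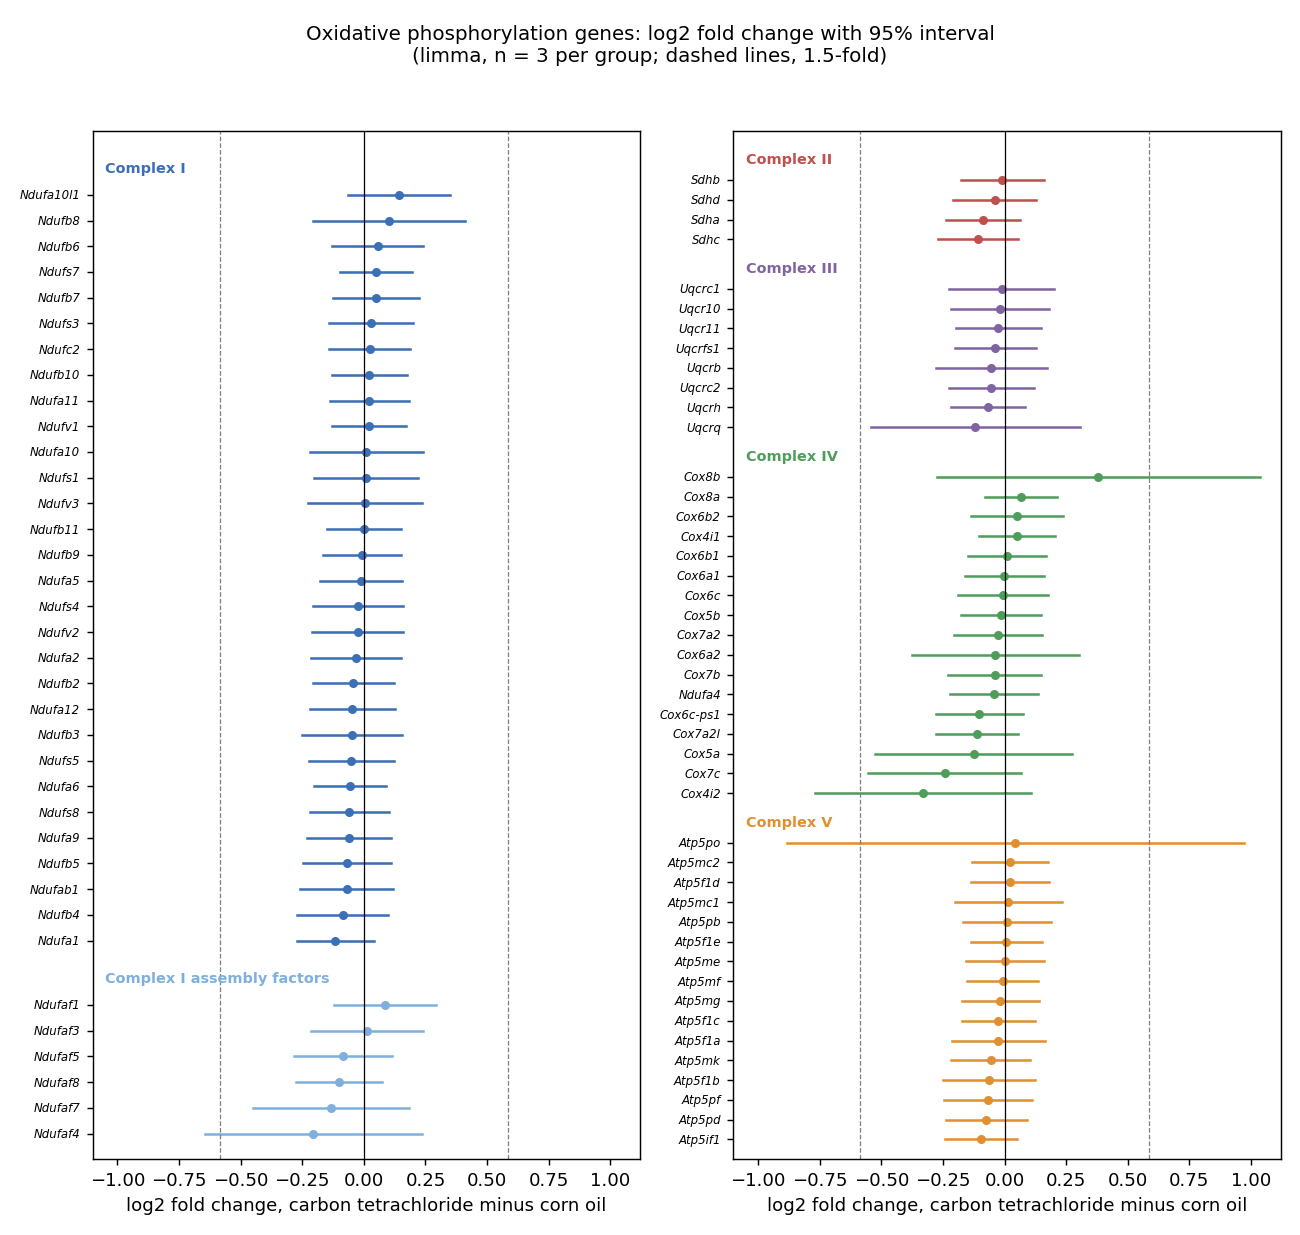
Log2 fold change (carbon tetrachloride minus corn oil, horizontal axis) of 81 of the 82 tested members, ordered by complex, with points for the limma estimate, bars for its 95% interval and dashed lines at 1.5-fold either way (n = 3 rats per group). Every interval drawn includes 0, and those of Cox8b, Cox4i2, Ndufaf4 and Atp5po cross a dashed line.

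The direction was tilted towards lower values by a small amount. Of the 82 members, 54 (65.9%) had a negative log2 fold change, against 47.8% of all tested transcripts, and the median over members was -0.025 against 0.0073. By complex the median was -0.011 for complex I, -0.093 for its assembly factors, -0.064 for complex II, -0.045 for complex III, -0.026 for complex IV and -0.012 for complex V. The groups did not overlap for 13 members (15.9%, against 12.8% of all tested transcripts). Of these, 11 (13.4%, against 5.3%) were lower in every treated rat than in every corn oil rat: Ndufa1, Ndufa6, Ndufaf8, Sdha, Sdhc, Uqcrh, Cox7c, Cox4i2, Cox7a2l, Cox6c-ps1 and Atp5if1. The other 2 (2.44%, against 7.51%) were higher in every treated rat: Ndufs7 and Cox8a. With 3 rats against 3 an exact permutation test cannot give a p under 0.10. With each array scaled to its median signal, 3 members did not overlap downwards (3.66%, against 4.92% of all tested transcripts) and 1 upwards (1.22%, against 7.0%), so the lower share was then below the background.

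The tilt differed between the treated rats. The median deviation of the members from their corn oil means was 0.026, -0.0022 and -0.014 in corn oil replicates 1, 2 and 3, and -0.024, -0.078 and 0.033 in carbon tetrachloride replicates 1, 2 and 3. The lowest and the highest of the 6 values thus both belonged to treated rats, and the highest was that of the array on slide 2. Within slide 1, 62 of 82 members were lower in treated rats, with a median of -0.056, and 31 did not overlap in that direction (10.8% of all tested transcripts there). Without carbon tetrachloride replicate 2, 44 members were lower and the median was -0.0042. On slide 1 treatment and array row cannot be told apart.

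**Figure D2:**
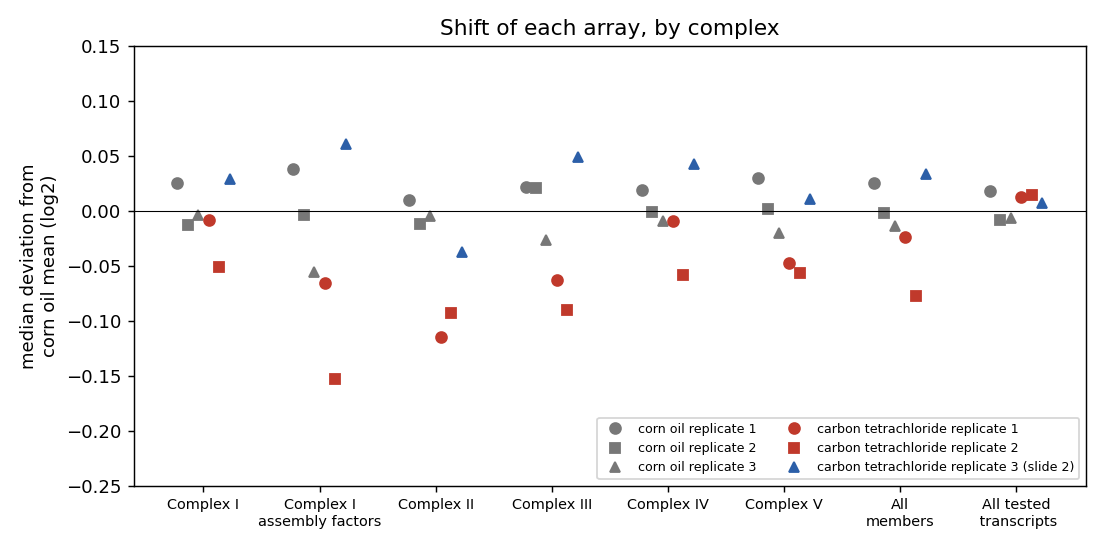
Median deviation of the members' log2 values from their corn oil means (vertical axis) on each of the 6 arrays, by complex, over all members and over all tested transcripts. Carbon tetrachloride replicate 3, on slide 2, lies above the other treated arrays in every complex, and in complex II all 3 treated arrays lie below the corn oil arrays.

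Complex I takes electrons from NADH, and of its 31 subunits 14 had a positive and 17 a negative log2 fold change, none past the threshold. Ndufa1, a small membrane subunit encoded on the X chromosome, had values of 6.82, 6.81 and 6.73 in corn oil rats and 6.70, 6.68 and 6.64 in treated rats. The groups did not overlap, and the difference was -0.12 ± 0.06 (SE, n = 3 per group; limma unadjusted p = 0.123, adjusted p = 0.824). Both Ndufa1 probes gave the same direction, and with an intensity trend in the variance model the unadjusted p was 0.0417 with robust fitting and 0.0436 without, with adjusted p of 0.817 and 0.802. Ndufa10l1, named as a copy of the subunit gene Ndufa10, had the highest fold change of the complex: 5.95, 5.76 and 5.85 in corn oil rats and 5.92, 5.98 and 6.09 in treated rats, a difference of 0.14 ± 0.08 (SE). Its groups overlapped, all 5 of its probes were higher, and it may share signal with Ndufa10, for which the difference was 0.011.

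The core subunits of complex I carry its flavin and iron-sulfur clusters, and 7 nuclear core genes were measured, of which 4 had a positive and 3 a negative fold change. Ndufv1, which holds the NADH and flavin site, had overlapping groups: 6.36, 6.33 and 6.37 in corn oil rats and 6.40, 6.33 and 6.39 in treated rats, with an interval from -0.13 to 0.17. Ndufs1, the largest subunit, was 5.02, 5.05 and 5.07 in corn oil rats and 4.96, 5.0 and 5.21 in treated rats, and the highest value was that of the array on slide 2. Ndufs7, which carries the last iron-sulfur cluster before coenzyme Q, was 6.24, 6.22 and 6.26 in corn oil rats and 6.27, 6.32 and 6.28 in treated rats. Those groups did not overlap for Ndufs7, but the difference was 0.051 ± 0.060 (SE) and its second probe gave -0.025. Among the accessory subunits, Ndufb4 differed by -0.09 ± 0.08 (SE) with overlapping groups, and Ndufa6 by -0.06 ± 0.06 (SE) without overlap. All 31 complex I intervals lay within 1.5-fold.

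The assembly factors Ndufaf1, Ndufaf3, Ndufaf4, Ndufaf5, Ndufaf7 and Ndufaf8 help to build or modify complex I and are not part of the finished enzyme. Their fold changes ran from -0.21 to 0.09. Ndufaf4 had the lowest, with values of 1.6, 1.54 and 1.61 in corn oil rats and 1.49, 0.98 and 1.67 in treated rats. Treated replicate 2 stood low and treated replicate 3 was the highest of all 6, so the groups overlapped (-0.21 ± 0.18, SE; limma adjusted p = 0.853). Ndufaf8 was 4.69, 4.60 and 4.55 in corn oil rats and 4.46, 4.54 and 4.55 in treated rats, a difference of -0.10 ± 0.07 (SE) without overlap. Ndufaf5, a hydroxylase of Ndufs7, differed by -0.08 ± 0.08 (SE) with overlapping groups. The median of the 6 factors, -0.093, was -0.0023 without carbon tetrachloride replicate 2.

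Complex II, succinate dehydrogenase, belongs both to the citric acid cycle and to the respiratory chain, and in animals all of its subunits are nuclear genes. All 4 had a negative log2 fold change. Sdha, the flavoprotein that oxidises succinate, was 6.98, 7.0 and 6.97 in corn oil rats and 6.87, 6.89 and 6.94 in treated rats. Sdhc, a membrane anchor, was 5.40, 5.32 and 5.32 in corn oil rats and 5.19, 5.23 and 5.29 in treated rats. In both genes every treated rat lay below every corn oil rat. The differences were -0.09 ± 0.06 (SE) for Sdha and -0.11 ± 0.07 (SE) for Sdhc, folds of 0.942 and 0.927, with limma adjusted p of 0.836 and 0.832.

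The other 2 subunits of complex II overlapped between the groups. Sdhb, the iron-sulfur subunit, was 5.38, 5.38 and 5.39 in corn oil rats and 5.39, 5.29 and 5.44 in treated rats. Sdhd, the other anchor, was 6.19, 6.12 and 6.21 in corn oil rats and 6.06, 6.19 and 6.14 in treated rats. Their differences were -0.0088 for Sdhb and -0.04 for Sdhd, and the second probe of Sdhb gave the opposite direction. Complex II was the complex in which the treated arrays were all low: its median deviation was -0.11, -0.093 and -0.038 in treated replicates 1, 2 and 3, against -0.012 to 0.0094 in corn oil rats. It holds only 4 genes on the same arrays, and all 4 intervals lay within 1.5-fold.

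Complex III passes electrons from coenzyme Q to cytochrome c. On the brightest probe, all 8 of its subunits named Uqcr had a negative log2 fold change, between -0.12 and -0.012. A dimmer probe of Uqcrc1 gave 0.051 and a dimmer probe of Uqcr11 gave 0.046. The other tested probes of these genes gave negative values. Cyc1, its nuclear cytochrome c1 gene, matched no probe and is not analysed here. Uqcrh, the hinge protein that helps cytochrome c to dock, was 6.55, 6.49 and 6.52 in corn oil rats and 6.49, 6.44 and 6.43 in treated rats. Its groups did not overlap, and the difference was -0.07 ± 0.06 (SE; limma adjusted p = 0.856). Uqcrc2, a core protein, was 5.20, 5.25 and 5.19 in corn oil rats and 5.11, 5.12 and 5.25 in treated rats. There the rat on slide 2 lay within the corn oil range and the others below it.

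Uqcrc1, the other core protein, and Uqcrfs1, the Rieske iron-sulfur protein, differed by -0.012 ± 0.087 and -0.04 ± 0.07 (SE), and their groups overlapped. Uqcrq, a small subunit, had the lowest fold change of the complex and the widest spread: -0.015, 0.069 and -0.25 in corn oil rats and 0.10, -0.16 and -0.50 in treated rats. The lowest value was that of the array on slide 2, and within slide 1 the difference of Uqcrq was 0.038 in place of -0.12. Without overlap within complex III stood 1 of 8 genes, Uqcrh, which was lower in treated rats. Over all tested transcripts 12.8% did not overlap in either direction and 5.3% were lower without overlap. All 8 intervals of complex III lay within 1.5-fold.

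Complex IV, cytochrome c oxidase, held the members with the largest fitted fold changes. Of 17 tested genes, 5 had a positive and 12 a negative fold change. Cox7c, a small structural subunit, had the smallest p of all members: 3.45, 3.38 and 3.41 in corn oil rats and 3.34, 3.26 and 2.90 in treated rats. Its groups did not overlap, and the lowest rat was the one on slide 2. The difference was -0.24 ± 0.13 (SE; limma unadjusted p = 0.103, adjusted p = 0.812), a fold of 0.845, and within slide 1 it was -0.11.

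Cox4i1 and Cox4i2 are alternative forms of subunit 4, and Cox4i2 is the form known from lung and from low oxygen. Cox4i1 was 7.77, 7.74 and 7.74 in corn oil rats and 7.77, 7.77 and 7.86 in treated rats, with overlapping groups (0.05 ± 0.06, SE). Cox4i2 was 2.80, 2.79 and 2.65 in corn oil rats and 2.61, 2.02 and 2.62 in treated rats. Treated replicate 2 stood far below the rest, and the other treated rats lay just under the lowest corn oil rat. The difference was -0.33 ± 0.18 (SE; limma adjusted p = 0.820), the lowest of all members. The second probe of Cox4i2 matched the same accession and gave 0.50, 0.41 and 0.44 in corn oil rats and 0.54, 0.47 and 0.54 in treated rats, a difference of 0.07. The probes of Cox4i2 therefore differ in direction.

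Subunits 6, 7 and 8 of complex IV also come in tissue forms, one known from heart and skeletal muscle and one from other tissues. Cox6a1, the general form, was 8.64, 8.64 and 8.60 in corn oil rats and 8.60, 8.57 and 8.69 in treated rats. Cox6a2, the muscle form, was -1.0, -1.13 and -0.93 in corn oil rats and -0.81, -1.06 and -1.29 in treated rats. Neither separated the groups. Cox7a2, the general form of subunit 7a, differed by -0.026 ± 0.073 (SE). Cox7a2l, a relative that joins complexes III and IV in supercomplexes, was 4.98, 5.05 and 4.93 in corn oil rats and 4.89, 4.82 and 4.91 in treated rats. Its groups did not overlap (-0.11 ± 0.07, SE), but its second probe gave 0.09.

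Cox8a, the general form of subunit 8, was 8.18, 8.13 and 8.14 in corn oil rats and 8.20, 8.23 and 8.21 in treated rats, a difference of 0.07 ± 0.06 (SE) without overlap. Cox8b, the form known from muscle and brown fat, had the highest fold change of all members. Its values were -1.09, -0.87 and -0.68 in corn oil rats and -0.86, 0.08 and -0.73 in treated rats. Treated replicate 2 alone stood high and the other treated rats lay within the corn oil range. The difference was 0.38 ± 0.27 (SE; 95% interval -0.27 to 1.04; limma adjusted p = 0.836), and the second probe showed the same high rat, at -0.49 against -1.76 to -1.27 in the other 5. The brown fat marker Cidea was -0.99, -0.80 and -0.82 in corn oil rats and -0.65, -0.28 and -0.68 in treated rats, highest in that same rat. Its groups did not overlap (0.33 ± 0.13, SE, with limma unadjusted p = 0.0478 and adjusted p = 0.791). Ucp1, which defines brown fat, was -4.64 in that rat against -4.84 to -3.84 in the other 5. It differed by -0.15 between the groups, which overlapped. Elovl3, the third brown fat marker, was well above background on 0 arrays. The mean of Cidea and Ucp1 was -2.87 to -2.33 in corn oil rats and -2.65 to -2.46 in treated rats. Of the 5 striated muscle markers 4 were tested, and the mean of those 4 was -3.43 to -3.15 in corn oil rats and -3.62 to -3.38 in treated rats. In the rat with high Cox8b, Mb was the highest of the 6 rats (-0.81 against -1.15 to -1.0) and Ckm the lowest (-5.33 against -4.18 to -3.66), while Acta1 and Tnnt3 lay within the range of the other 5. Whether tissue carried along in dissection took part in the Cox8b value was not tested.

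The subunit 6b pair showed a probe dependence as well. Cox6b1, the general form, differed by 0.011 ± 0.065 (SE) on its brightest probe, and its other probes gave -0.053 and -0.11. Cox6b2, the form known from testis, differed by 0.05 ± 0.08 (SE) on its brightest probe and by -0.69 ± 0.25 (SE) on a dimmer one. That dimmer probe read -2.72, -2.56 and -3.39 in corn oil rats and -3.88, -3.50 and -3.35 in treated rats. Those groups overlapped, and the limma unadjusted p of that probe was 0.0344 in a fit over all tested probes. Ndufa4 was 6.86, 6.86 and 6.85 in corn oil rats and 6.79, 6.73 and 6.91 in treated rats, a difference of -0.04 ± 0.07 (SE) with overlapping groups. Cox6c-ps1 did not overlap (-0.10 ± 0.07, SE), whereas Cox6c itself, with which it may share signal, differed by -0.0071.

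Cox5a, a subunit on the matrix side of complex IV, varied between rats without following treatment. It was 6.85, 6.43 and 6.82 in corn oil rats and 6.76, 6.33 and 6.63 in treated rats. Replicate 2 of each group was the low rat, and the second probe of Cox5a gave the same order, with 6.36 and 6.22 in those rats against 6.5 to 6.78 in the other 4. Its difference between groups was -0.13 ± 0.16 (SE), less than the SD within either group (0.232 and 0.220).

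**Figure D3:**
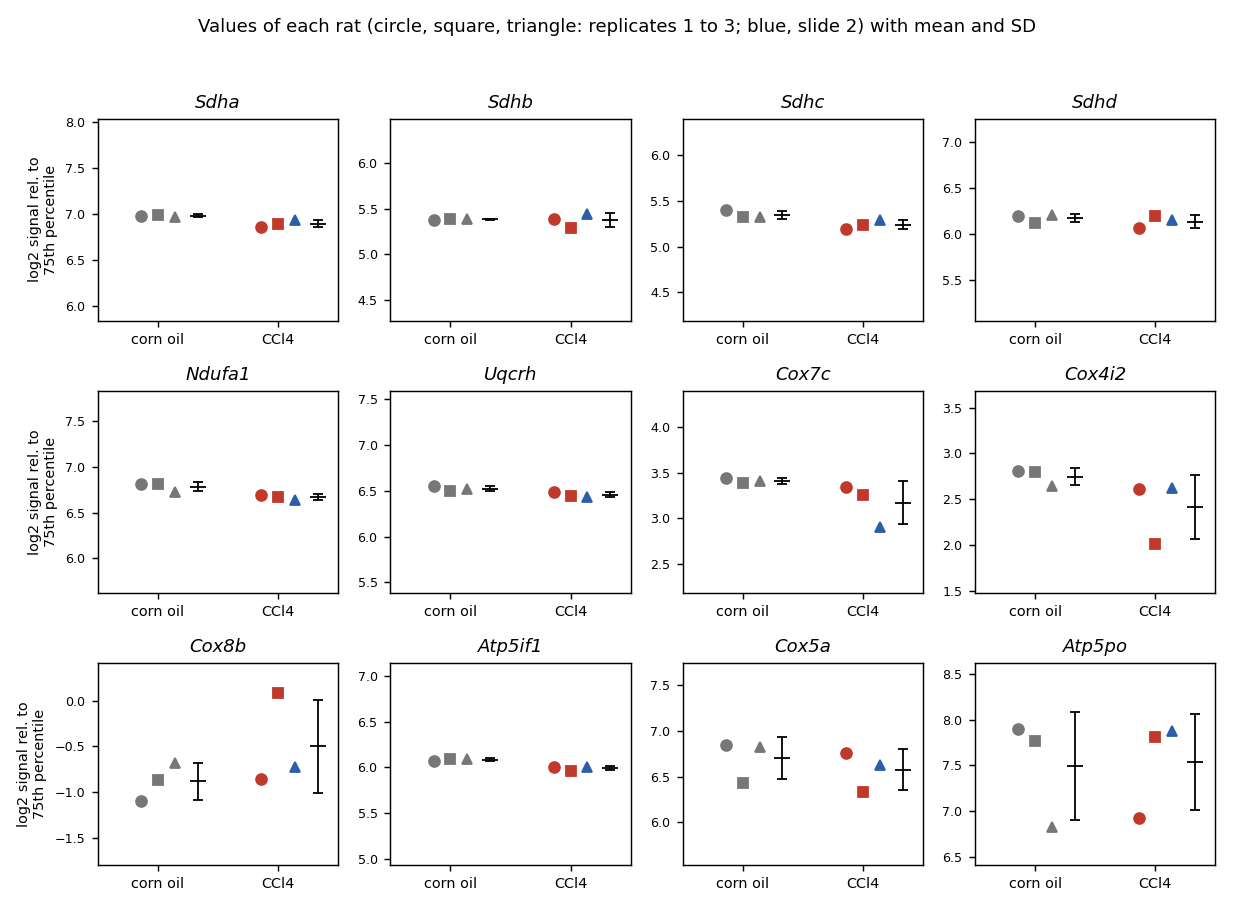
Log2 signal relative to the array's 75th percentile (vertical axis, 2.2 units high in every panel) of 12 members in each rat, with the group mean and SD beside the points. Sdha, Sdhc, Ndufa1, Uqcrh, Cox7c, Cox4i2 and Atp5if1 do not overlap between groups, whereas Cox8b has 1 high treated rat and Cox5a and Atp5po have low rats in both groups.

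Complex V, the ATP synthase, had 7 positive and 9 negative fold changes among 16 genes. Of the head subunits alpha and beta, Atp5f1a was 8.86, 8.82 and 8.81 in corn oil rats and 8.77, 8.72 and 8.92 in treated rats, and Atp5f1b was 6.03, 6.07 and 5.88 in corn oil rats and 5.95, 5.90 and 5.94 in treated rats. Both overlapped, with differences of -0.025 ± 0.077 and -0.06 ± 0.08 (SE). A dimmer probe of Atp5f1a gave 0.055. Of the stalk subunits, Atp5pd was 6.54, 6.49 and 6.49 in corn oil rats and 6.39, 6.4 and 6.5 in treated rats, and Atp5pf differed by -0.07 ± 0.07 (SE). In Atp5pd and in Atp5pf the treated rat on slide 2 lay within the corn oil range and the others below it.

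Atp5if1, which encodes the inhibitor that stops the synthase from running backwards and spending ATP, had the smallest p of complex V. It was 6.07, 6.10 and 6.09 in corn oil rats and 6.0, 5.96 and 6.0 in treated rats. Every treated rat was below every corn oil rat, and the difference was -0.09 ± 0.06 (SE; limma unadjusted p = 0.162, adjusted p = 0.834), a fold of 0.937. Atp5po, the stalk subunit that confers oligomycin sensitivity, had the widest interval of any member (-0.88 to 0.97). It was 7.89, 7.77 and 6.82 in corn oil rats and 6.93, 7.81 and 7.87 in treated rats, with 1 low rat in each group and the other 4 between 7.77 and 7.89. Atp5po was measured by 1 probe, and it was named after its values were seen. A dimmer probe of Atp5mg was low in the same rats, with 6.90, 6.87 and 5.99 in corn oil rats and 6.06, 6.72 and 6.94 in treated rats. The brightest Atp5mg probe read 7.31 to 7.39 in every rat. Both low arrays, corn oil replicate 3 and carbon tetrachloride replicate 1, lay in column 3 of slide 1, and no other array did. Rat and array position therefore cannot be told apart here, and the cause of this pattern was not tested.

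The spread of the members between rats was small. The median SD within a group was 0.062 log2 units over members and 0.142 over all tested transcripts, and 72 of 82 members (87.8%) had a range under 0.4 over all 6 arrays, with a median range of 0.175. The members are bright probes, which bears on that spread: 77 of 82 were above the array's 75th percentile in both group means. A within-group SD above 0.2 was found for 9 members. Of 43 genes with more than 1 tested probe, 15 had probes that differed in direction.

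The promoters of these genes were searched for 3 words that the choice of members did not use. NRF1, the ETS-family factor GABP and YY1 are known regulators of nuclear genes for mitochondrial proteins. RefSeq windows of the assembly GRCr8, from 250 bases before to 50 bases after the gene start, were found for 73 of 83 members and for 27457 genes in all. The NRF1 palindrome, GCGCA joined directly to its reverse complement TGCGC, was in 6 member windows (8.22%) and in 0.932% of all windows. The ETS core CCGGAAG, or CTTCCGG on the other strand, was in 22 (30.1%) against 9.22%, and the YY1 word AAGATGGC, or GCCATCTT on the other strand, was in 14 (19.2%) against 3.44%. At least 1 of the 3 words was in 34 (46.6%) against 12.7%, and 0 matches of different words overlapped in the members. A match describes the letters only, and the words were settled after first counts had been seen.

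The 6 stretches with the NRF1 word are shown because it is the rarest of the words and among the members it was found in genes of complex I, its assembly factors and complex V. Each runs 5′ to 3′ along the gene, lies before the start and has the word in capitals. In Ndufa11 it occurs as overlapping copies.
Ndufa11 (chr9:1637498-1637557, + strand): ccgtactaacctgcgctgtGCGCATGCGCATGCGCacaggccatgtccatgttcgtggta
Ndufaf4 (chr5:43401612-43401671, + strand): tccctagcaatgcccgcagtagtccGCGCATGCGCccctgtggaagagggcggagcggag
Ndufaf5 (chr3:147961552-147961611, + strand): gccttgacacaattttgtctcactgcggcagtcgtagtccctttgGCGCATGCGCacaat
Atp5mc2 (chr7:135678240-135678299, - strand): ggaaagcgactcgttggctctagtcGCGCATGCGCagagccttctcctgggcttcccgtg
Atp5me (chr14:1464759-1464818, + strand): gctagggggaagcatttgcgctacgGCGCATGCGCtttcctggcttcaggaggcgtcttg
Atp5po (chr11:44657508-44657567, - strand): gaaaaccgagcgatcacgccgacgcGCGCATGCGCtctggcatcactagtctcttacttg

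Stretches with the ETS core in capitals are shown for 4 members described above, 1 from each of complexes I to IV. They include genes that did not overlap downwards (Ndufa1, Uqcrh) and upwards (Cox8a) and one that overlapped (Sdhb).
Ndufa1 (chrX:121293693-121293752, - strand): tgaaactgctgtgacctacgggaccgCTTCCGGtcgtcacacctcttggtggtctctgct
Sdhb (chr5:158547800-158547859, + strand): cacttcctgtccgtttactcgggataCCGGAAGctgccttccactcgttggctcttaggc
Uqcrh (chr5:134790932-134790991, - strand): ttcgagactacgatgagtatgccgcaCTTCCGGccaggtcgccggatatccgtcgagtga
Cox8a (chr1:213833624-213833683, - strand): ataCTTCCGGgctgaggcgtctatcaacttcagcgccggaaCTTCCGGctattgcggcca

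The fold changes of members with and without each word lay close together. The median log2 fold change was 0.011 for the 6 with the NRF1 word and -0.025 for the 66 tested without it. It was -0.029 with and -0.021 without the ETS core, and -0.018 with and -0.025 without the YY1 word. No test was made of these medians.

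Other genes of the pathway were taken from lists of related functions. Cytochrome c, the carrier between complexes III and IV, is encoded by Cycs in somatic cells: it was 7.30, 7.10 and 7.40 in corn oil rats and 7.30, 7.20 and 7.10 in treated rats, and the groups overlapped. The testis form Cyct was well above background on 0 arrays. Among 35 tested assembly factors of complexes II to V, 19 were higher and 16 lower, with a median of 0.0070, and 0 passed the threshold. The smallest p among them was that of Sdhaf1, which helps to insert iron-sulfur clusters into Sdhb. It was 3.88, 4.23 and 4.24 in corn oil rats and 3.92, 3.88 and 3.56 in treated rats, with overlapping groups (-0.33 ± 0.15, SE; limma adjusted p = 0.798). Fmc1, an assembly factor of ATP synthase, differed by -0.11 ± 0.06 (SE). Of 9 tested complex I assembly genes named otherwise, 4 were higher and 5 lower, Dmac2 by 0.12 ± 0.06 and Tmem126a by -0.11 ± 0.07 (SE), and 0 passed. Of 12 tested genes of coenzyme Q synthesis, 8 were higher and 4 lower with a median of 0.025, Coq8a by -0.18 ± 0.10 and Coq10b by 0.15 ± 0.10 (SE), and 0 passed.

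Of 26 tested genes of the citric acid cycle and pyruvate oxidation, 14 were higher and 12 lower, with a median of 0.016, and 0 passed. The smallest p belonged to Pdk1 and Pdk2, which encode pyruvate dehydrogenase kinases, enzymes that switch off the entry of pyruvate into the cycle. Pdk1 was -2.68, -2.58 and -2.60 in corn oil rats and -2.25, -2.30 and -2.25 in treated rats. Its groups did not overlap, and the difference was 0.35 ± 0.06 (SE; limma unadjusted p = 0.0017, adjusted p = 0.687). Pdk2 was 5.51, 5.53 and 5.52 in corn oil rats and 5.78, 5.67 and 5.91 in treated rats, also without overlap (0.26 ± 0.08, SE; limma adjusted p = 0.770). Pdk4, named after its values were seen, went the other way: -2.66, -1.80 and -2.22 in corn oil rats and -2.73, -2.09 and -3.39 in treated rats, with overlapping groups (-0.51 ± 0.37, SE). The remaining kinase gene, Pdk3, differed by 0.13 (limma unadjusted p = 0.263).

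The list of 21 tested regulators of mitochondrial biogenesis had 11 higher and 10 lower genes, a median of 0.0033 and 0 past the threshold. Ppargc1b, a coactivator of mitochondrial gene transcription, was 0.38, 0.25 and 0.60 in corn oil rats and 0.89, 0.70 and 0.77 in treated rats. Its groups did not overlap (0.38 ± 0.11, SE; limma adjusted p = 0.765). The related coactivator Ppargc1a was -0.52, -0.69 and -0.50 in corn oil rats and -0.51, -1.02 and -0.82 in treated rats, and those groups overlapped (-0.21 ± 0.14, SE). Nrf1, whose word was searched above, differed by 0.16 ± 0.08 (SE). Gabpa, Tfam and the nuclear receptor gene Esrra differed by 0.018 ± 0.062, 0.0033 ± 0.0640 and -0.06 ± 0.07 (SE). Tfb1m, which modifies mitochondrial ribosomal RNA, was -0.59, -0.57 and -0.94 in corn oil rats and -0.99, -1.01 and -0.96 in treated rats, without overlap (-0.29 ± 0.11, SE; limma adjusted p = 0.791).

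Of 16 tested genes of uncoupling, adenine nucleotide exchange and electron entry, 8 were higher and 8 lower, with a median of -0.0012. Ucp2, an inner membrane carrier of the uncoupling protein family, was -0.93, -0.80 and -0.89 in corn oil rats and -0.48, -0.81 and -0.31 in treated rats, with overlapping groups (0.34 ± 0.14, SE; limma adjusted p = 0.791). Dhodh, which passes electrons from pyrimidine synthesis to coenzyme Q, was 0.79, 0.70 and 0.62 in corn oil rats and 0.90, 0.89 and 1.11 in treated rats. It did not overlap (0.27 ± 0.09, SE; limma adjusted p = 0.776), and 0 genes of this list passed. In limma at an unadjusted p under 0.05, this list had 2 genes higher, the citric acid cycle list 2 higher and the biogenesis list 1 higher and 1 lower. The other related lists had 0. Over all tested transcripts the shares at that p were 3.64% higher and 2.64% lower.

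**Figure D4:**
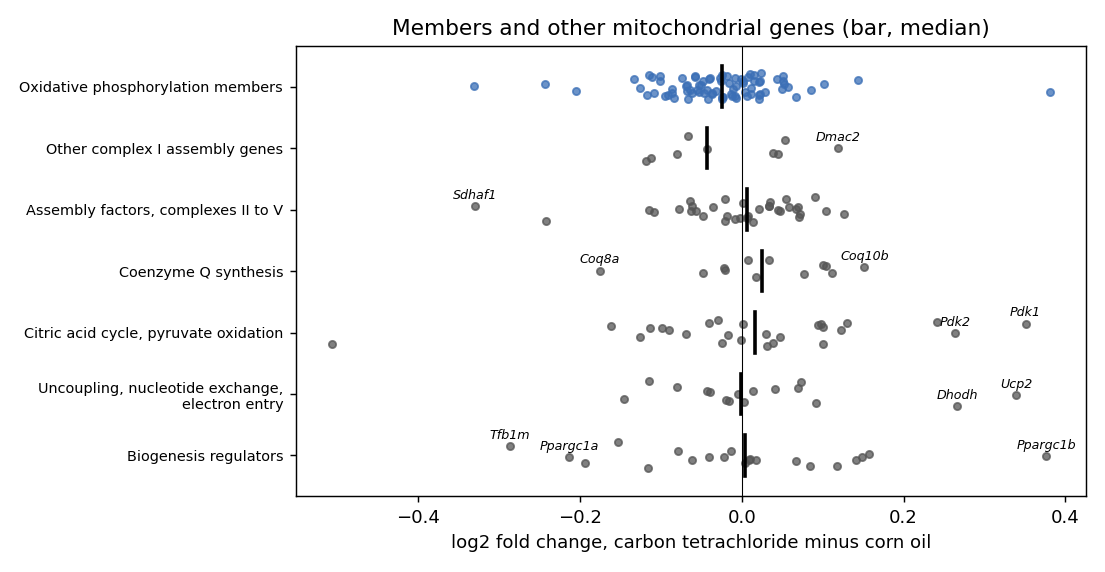
Log2 fold change (carbon tetrachloride minus corn oil, horizontal axis) of the members and of 6 lists of other mitochondrial genes, 1 point for each tested gene, with vertical bars at each list's median. The medians lie between -0.042 and 0.025, and the genes farthest from 0 that are labelled in the related lists, such as Pdk1, Ppargc1b and Sdhaf1, did not pass the threshold.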

How the data were processed

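Renal cortex RNA from 6 rats was measured on single-colour Agilent arrays with Cy3, per the labels. The scanner files deposited by the authors hold the processed spot intensity, a background-subtracted linear value, extracted with Agilent Feature Extraction 10.7.1.1 per the file headers (10.7 per the submitters' processing notes). The value table deposited by the authors also holds intensity: dividing an array's processed signal by a constant between 1015 and 1092 gave its column, and its column medians were 0.118, 0.111 and 0.114 for corn oil and 0.116, 0.115 and 0.111 for carbon tetrachloride, so scale, centring and direction follow from that comparison.

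The 75th percentile of each array was subtracted from its log2 processed signals. The 1439 control spots and 0 to 25 outlier spots per array were left out, and 1 spot was saturated. Accessions were matched without version to RefSeq genes of GRCr8, for names and promoters only: 28206 of 61537 probes (45.8%) matched, 147 of them to members. The table of names holds 120 symbols that fit the rule and carry no pseudogene suffix; those without a matched probe, among them Ndufa4l2 and Cox7a1, are not analysed here. A gene was represented by its brightest probe and tested if every array of 1 or both groups showed that probe well above background. The two-sided test was limma's (version 3.58.1, R 4.3.3; lmFit, then eBayes), fitted over 31190 transcripts with Benjamini-Hochberg adjustment and a threshold of 0.05; a negative fold change means lower in treated rats. Replicates are biological, per the design text. The code was tested on simulated data. Precision is limited by the number of arrays.

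Members and lists were chosen with earlier results of these data known. Named genes were the 3 members of smallest p in each complex (5 in complex I), the highest and lowest fold changes, fixed core subunits, paralogs and regulators, and the 2 genes of smallest p in each related list; members whose groups did not overlap and those with wide intervals were added after seeing the values. A gene that this rule takes is not reported here. Same-numbered replicates did not vary together (correlations of -0.02, -0.10 and -0.08), and the main fit did not pair the rats by number. With 3 replicates, these correlations cannot show whether the rats were paired in the study. The plan had assumed a mean signal column, and the normexp alternative used the median signal instead.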

Additional observations from a re-analysis of the deposited data

How the results depend on the processing

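Under all 20 alternatives, of which the intensity trend without robust fitting was chosen after seeing the data, 0 members passed the adjusted threshold. 3 rats per group, and 1 treated array alone on slide 2, limit every value. Of 55 named genes with values, 42 kept their direction under every alternative and 13 did not. The smallest adjusted p of a named gene under any alternative was 0.522.

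The number of non-overlapping members was 1 higher with normexp and quantile normalization, and 1 higher and 3 lower with median scaling (against 7.42%, 7.0% and 4.92% of all tested transcripts). Within slide 1 it was 31 lower (37.8%, against 10.8%). With an intensity trend, 1 member (1.22%) was lower at an unadjusted p under 0.05 in limma, with or without robust fitting. The share of all tested transcripts was 2.69% with robust fitting and 2.76% without. The median of complex IV was -0.052 with normexp and quantile normalization, and that of complex V was -0.048 with a slide block and also within slide 1. Leaving out each array in turn gave 2 to 8 non-overlapping members higher (11.3% to 14.3% of all tested transcripts) and 11 to 31 lower (7.88% to 11.8%). It gave 0 to 1 member lower at an unadjusted p under 0.05 in limma (1.73% to 3.41% of all tested transcripts). The medians ran from -0.13 to -0.0023 for complex I assembly factors and from -0.048 to 0.0028 for complex V. The 31 was reached without carbon tetrachloride replicate 3, and the 8 (9.76%, against 13.5%) without carbon tetrachloride replicate 2, where 11 were lower (13.4%, against 10.8%). The cause of these moves was not tested.

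Some small fold changes turned sign. Normexp with the 75th percentile gave -0.0032 for Ndufs1 and -0.033 for Cox6b1, and normexp with quantile normalization gave 0.0075 for Uqcrfs1 and -0.024 for Cox6b1. Quantile normalization gave 0.0036 for Uqcrc1, 0.0041 for Sdhb and -0.012 for Tfam, and median scaling gave 0.0025 for Cox6a1. The mean of the tested probes gave 0.019 for Uqcrc1, -0.052 for Cox6b1, 0.015 for Atp5f1a, 0.0094 for Sdhb and -0.32 for Cox6b2. The slide block and the fit within slide 1 both gave 0.038 for Uqcrq, 0.082 for Cox6a2, -0.065 for Ndufs1 and -0.028 for Tfam. Leaving out each array gave ranges of -0.065 to 0.058 for Ndufs1, -0.028 to 0.028 for Tfam, -0.016 to 0.032 for Cox6b1, -0.036 to 0.023 for Cox6a1, -0.065 to 0.0081 for Cox7a2, -0.057 to 0.059 for Uqcrc1, -0.16 to 0.082 for Cox6a2, -0.0043 to 0.085 for Cox6b2, -0.043 to 0.032 for Sdhb, -0.0031 to 0.035 for Gabpa, -0.084 to 0.016 for Atp5f1a and -0.26 to 0.038 for Uqcrq.

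With the replicate number as a block, 0 members passed the threshold, 54 had a negative fold change and the median over members was -0.025. Same-numbered replicates did not vary together, and the block changed no call.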
